A study of Mus musculus with 11 samples.

Results

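The insulin-like growth factor (IGF) family was followed in bulk RNA of the mouse aortic arch, dissected on postnatal day 11. Its 10 members were taken by gene name from a mouse count table of 48709 genes: the ligands Igf1 and Igf2, the receptors Igf1r and Igf2r, and the 6 binding proteins Igfbp2 to Igfbp7. They were selected on their CPM in the contrast of Het with WT described here. Libraries Het 1 to 6 came from Tgfbr2-G357W/+ mice, which carry 1 mutant allele of the type II TGF-beta receptor and stand as a model for Loeys-Dietz syndrome, an inherited connective tissue disorder with aortic aneurysm. WT 1 to 5 came from Tgfbr2-+/+ wild-type littermates. The labels name no treatment, give smooth muscle and endothelium as the cell types, and state neither sex nor whether each library is 1 animal, although the numbers of mice and libraries match. Where libraries do not stand for separate animals, p-values measure only the spread between these samples.

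IGF1 and IGF2 are small secreted hormones related to insulin that act on growth and survival through the tyrosine kinase receptor encoded by Igf1r. The receptor encoded by Igf2r binds IGF2 and mannose 6-phosphate tagged enzymes and takes them to the lysosome, so it clears IGF2 without a kinase of its own. The binding proteins hold IGFs in blood and matrix and can both restrain and release them. In arteries, IGF1 made in the wall itself is known to act on smooth muscle, beside the IGF1 that the liver secretes under growth hormone.

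Library totals ran from 13113467 to 19327935 counts. Counts were scaled to CPM (counts scaled to a common library size) with TMM factors, which correct for library composition. The 14757 genes with enough counts were compared by edgeR's quasi-likelihood test, with Benjamini-Hochberg adjustment over all of them and a threshold of 0.05. All 10 members were among those tested. The family was proposed with results of this same contrast in view. Its fold changes and adjusted p are therefore given as a description of the fit, and a call is not independent evidence about the family. Tgfbr2 itself was at 39.0 ± 8.22 CPM in Het (SD, n = 6) and 41.3 ± 4.29 CPM in WT (SD, n = 5; log2 fold change -0.09 ± 0.13, SE, adjusted p = 0.790), and counts per gene cannot separate its alleles. All 7 smooth muscle and all 7 endothelial markers were detected. Smooth muscle markers summed to 30456 to 41474 CPM in Het and 33587 to 38102 CPM in WT. Acta2, which averaged 27878 CPM in Het and 27064 CPM in WT, made up most of these sums. Of the 7 smooth muscle markers, 1 was called: Cnn1, calponin of the contractile apparatus, averaged 1706 CPM in Het and 2431 CPM in WT (log2 fold change -0.51 ± 0.13, SE, adjusted p = 0.0346). Xist lay at 58.4 to 78.6 CPM in the 5 WT libraries, Het 1 and Het 2, and at most at 0.735 CPM in the 4 libraries Het 3 to 6, which had 86.4 to 110 CPM of the Y-linked gene Ddx3y. No WT library is Y-positive, so sex and genotype are partly confounded. Values or fits by sex-linked genes are given for the called members and pathway genes, but not for the called markers.

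Of the 10 members, 2 rose in Het, Igfbp2 and Igfbp7, and 2 fell, Igf1 and Igfbp4. The other 6 did not pass. Among all genes tested, 5.03 percent were called, 2.65 percent higher and 2.38 percent lower in Het. The median log2 fold change was 0.0039 over the 10 members and -0.0046 over all genes tested, and the median absolute log2 fold change was 0.375 over the members and 0.183 over all genes. The groups did not overlap for 3 members, of which 1 lay above and 2 below WT; over all genes tested 4.61 percent did not overlap, 2.41 percent above and 2.2 percent below.

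**Figure D1:**
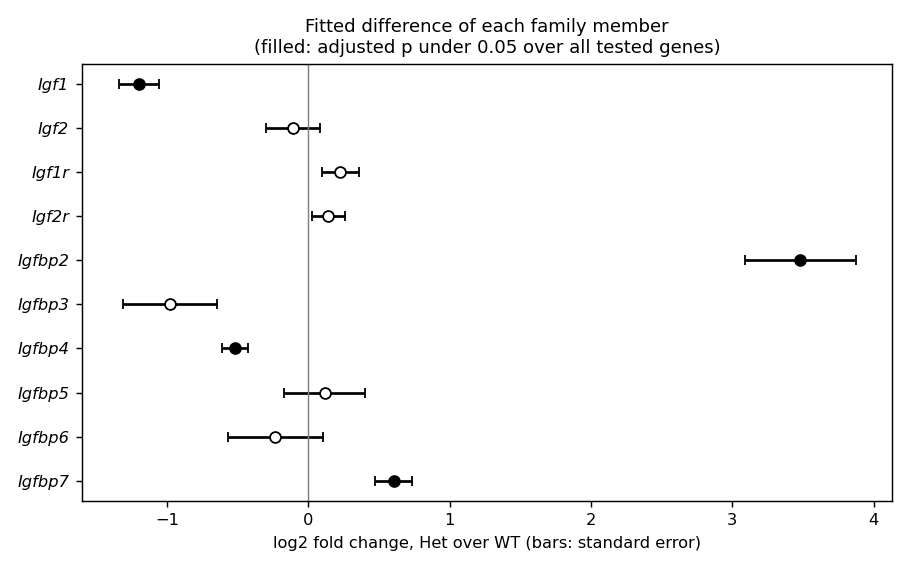
Log2 fold change of Het over WT for each of the 10 IGF family members, with bars of 1 standard error and filled points where the adjusted p over all tested genes is under 0.05. Igfbp2 lies far to the right at 3.48, Igfbp7 at 0.60, Igfbp4 at -0.52 and Igf1 at -1.20; of the 6 open points Igfbp3 lies farthest from 0 at -0.98, and the others lie between -0.23 and 0.23.

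The sequences before the transcription starts of called binding proteins are shown because the called binding proteins include 2 that rose and 1 that fell. RefSeq promoters on GRCm38.p6 matched all 10 members by symbol, and the 250 bases before the start are printed 5′ to 3′ for 3 of the 4 called genes. Capitals mark GGGCGG or its reverse complement CCGCCC, the GC box bound by Sp1 factors, and TATAAA on the gene's own strand, the TATA box.
Igfbp2 (chr1:72824230-72824479, plus strand): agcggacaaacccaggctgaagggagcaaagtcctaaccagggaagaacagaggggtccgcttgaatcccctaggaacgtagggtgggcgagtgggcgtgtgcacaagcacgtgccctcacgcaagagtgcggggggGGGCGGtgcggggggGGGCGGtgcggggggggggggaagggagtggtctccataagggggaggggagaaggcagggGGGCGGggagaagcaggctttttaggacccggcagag
Igfbp7 (chr5:77408046-77408295, minus strand): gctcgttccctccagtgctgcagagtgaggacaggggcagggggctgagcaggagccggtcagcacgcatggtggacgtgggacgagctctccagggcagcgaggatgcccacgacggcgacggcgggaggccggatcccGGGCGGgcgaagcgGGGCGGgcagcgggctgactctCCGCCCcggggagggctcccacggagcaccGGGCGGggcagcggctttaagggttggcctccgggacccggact
Igfbp4 (chr11:99040994-99041243, plus strand): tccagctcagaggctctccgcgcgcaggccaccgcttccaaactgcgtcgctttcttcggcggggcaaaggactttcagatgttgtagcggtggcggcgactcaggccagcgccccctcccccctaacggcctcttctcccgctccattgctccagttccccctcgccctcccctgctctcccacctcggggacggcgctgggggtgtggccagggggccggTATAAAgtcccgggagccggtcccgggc

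The printed window of Igfbp2 held 3 GC boxes and that of Igfbp7 held 4, and neither held TATAAA. Igfbp4 held TATAAA ending 23 bases before the start and no GC box. GC boxes were not particular to members that rose. Among members not called, the window of Igf1r held 2, that of Igf2r held 3, and Igf2 held up to 2 in a window. The windows of Igfbp3, Igfbp5 and Igfbp6, also not called, held neither a GC box nor TATAAA. Of 32851 RefSeq promoter windows of the same length, 32.7 percent held a GC box and 7.59 percent TATAAA. RefSeq lists a second Igfbp2 start further along the gene. The 250 bases before it (chr1:72825137-72825386) lie in an exon of 1 annotated transcript and are not printed; they held 1 Smad box (GTCTG), no GC box and no TATAAA, at 56.4 percent GC. The counts per gene do not tell which start was used. The Smad box CAGAC or GTCTG, in 42.2 percent of all windows, was in none of the 3 printed windows, and nor was the Foxo site GTAAACA or TGTTTAC, in 3.17 percent. The GC box of BMP-activated Smads, GGCGCC, was in 9.59 percent of all windows and in none of the 3. The window of Igf1 is not printed because it lies in an exon of 2 annotated transcripts; it held 1 GGCGCC and none of the other motifs. GC content was 67.2 percent for the printed window of Igfbp2, 74.0 percent for Igfbp7, 69.2 percent for Igfbp4 and 52.8 percent for Igf1, against a median of 52.4 percent over all windows. A match or its absence describes these letters only.

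The ligands differed. Igf1 (ENSMUSG00000020053; chromosome 10, 87858265 to 87937042, plus strand of GRCm38) fell in Het. It had 623, 360, 471, 386, 453 and 386 CPM in Het 1 to 6, against 1244, 1100, 1048, 965 and 760 CPM in WT 1 to 5. The highest Het library, Het 1, lay below the lowest WT library, WT 5, so the groups do not overlap. The mean was 446 ± 96.5 CPM in Het (SD, n = 6) and 1023 ± 179 CPM in WT (SD, n = 5), a log2 fold change of -1.20 ± 0.14 (SE, adjusted p = 1.88e-04), which is a WT level 2.29 times that of Het. This rests on 4989 to 8429 counts in Het and 10169 to 20404 in WT. Its antisense neighbour Igf1os had at most 8 counts in a library and shares no exon bases with Igf1.

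The 2 Xist-positive Het libraries had 623 and 360 CPM of Igf1 and the 4 Y-positive ones 386 to 471 CPM, all below the 5 Xist-positive WT libraries. With a score of sex-linked genes as a covariate, Igf1 stayed called, at -1.06 ± 0.21 on the log2 scale (adjusted p = 0.0335). In the 7 Xist-positive libraries alone it was -1.05 ± 0.23 and missed the threshold (adjusted p = 0.124). In bulk tissue, fewer cells of a type and less RNA per cell cannot be told apart. Macrophage markers, which mark cells known to make IGF1, summed to 74.7 to 242 CPM in Het and 61.4 to 181 CPM in WT, and 0 of 7 passed in either direction. Skeletal muscle markers summed to 8.56 to 15.7 CPM in Het and 18.9 to 39.5 CPM in WT, with Tnnt3 lower in Het and the 2 other tested of 7 not called (Pvalb was at 0). Tnnt3 alone separated these sums: it had 5.74 to 12.7 CPM in Het and 14.3 to 37.3 CPM in WT, while the other 6 genes summed to 2.82 to 4.83 CPM in Het and 2.18 to 5.56 CPM in WT. Cartilage markers summed to 9.98 to 12.9 CPM in Het and 13.8 to 21.6 CPM in WT, with Sox9 lower, 4 others tested and not called, and Matn1 at 0. Without Sox9 the cartilage sums overlapped, at 6.92 to 10.3 CPM in Het and 7.08 to 13.1 CPM in WT. Brown and white fat markers varied widely between libraries. They summed to 272 to 1879 CPM in Het and 704 to 2532 CPM in WT, and none of the 5 tested of 6 passed. The part of fat, or of Tnnt3- or Sox9-expressing cells, in the Igf1 result was not tested. Hepatocyte markers summed to at most 0.665 CPM in Het and 1.18 CPM in WT, with Apoa2 and Fgb at 0 in every library.

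Igf2, the fetal growth ligand that is expressed from the paternal allele, was low and did not pass. It had 17.1, 24.3, 27.0, 17.2, 15.6 and 28.5 CPM in Het 1 to 6, against 26.2, 15.3, 24.5, 20.6 and 29.9 CPM in WT 1 to 5. The groups overlap almost wholly, with a log2 fold change of -0.11 ± 0.19 (SE, adjusted p = 0.820). A read-through annotation, Gm49394, shares 3596 exon bases with Igf2. It is not among the counted genes, so no reads were assigned to it. The opposite-strand gene Igf2os had no count.

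**Figure D2:**
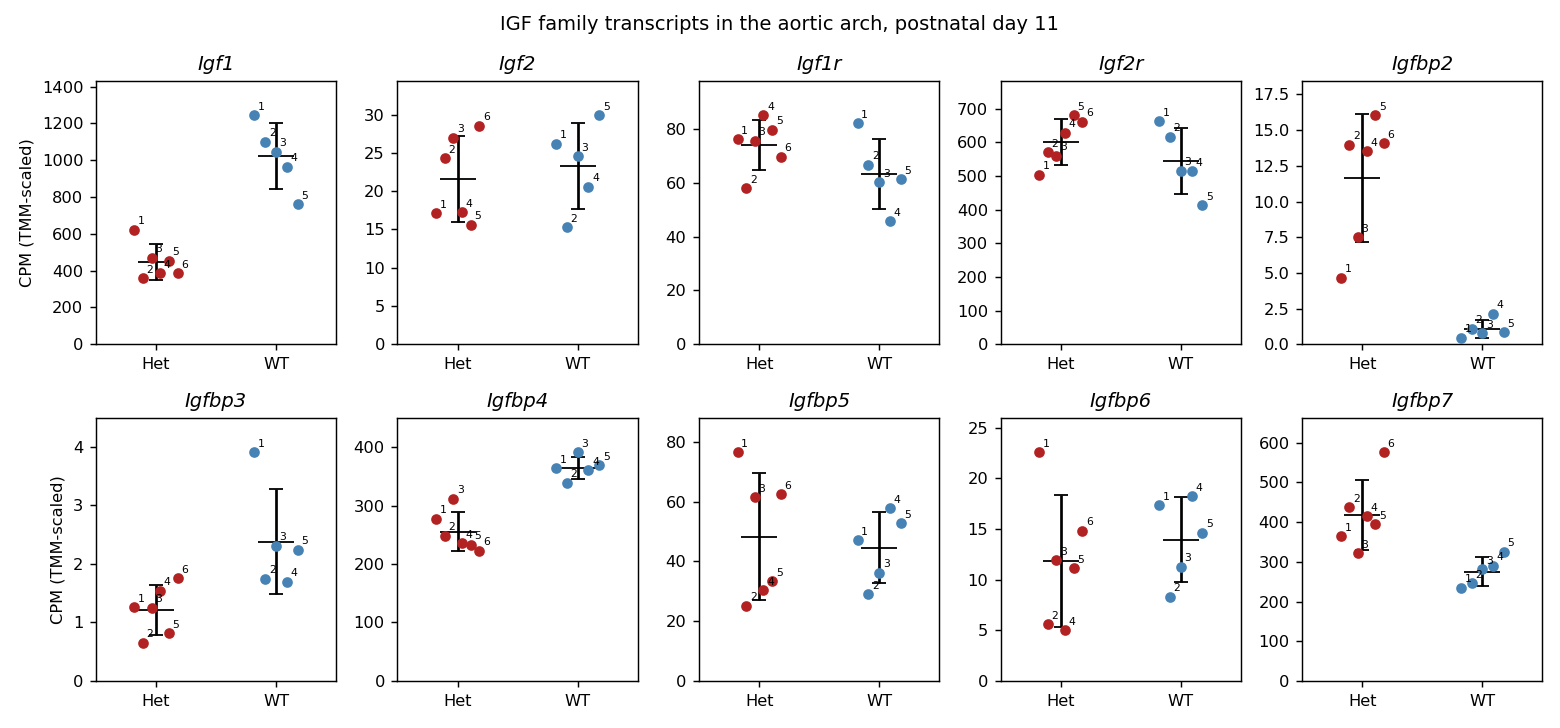
CPM of each family member in each library, Het left of WT, with the replicate number beside each point and the mean with 1 SD in black; every axis starts at 0. Igf1 and Igfbp4 lie lower in Het with no overlap, Igfbp2 higher with no overlap, and Igfbp7 overlaps only between Het 3 at 322 CPM and WT 5 at 325 CPM.

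Neither receptor passed. Igf1r had 76.3, 57.9, 75.8, 85.2, 79.9 and 69.7 CPM in Het 1 to 6, against 82.3, 66.7, 60.3, 45.9 and 61.4 CPM in WT 1 to 5. Het 4 alone lay above the WT range and WT 4 alone below the Het range (log2 fold change 0.23 ± 0.13, SE, adjusted p = 0.369). Igf2r had 504, 571, 561, 629, 680 and 661 CPM in Het 1 to 6, against 663, 616, 516, 514 and 413 CPM in WT 1 to 5. Het 5 was highest and WT 5 lowest, and the ranges overlap over most of their length (log2 fold change 0.14 ± 0.12, SE, adjusted p = 0.557). Its direction turned when the sex score was a covariate (-0.03 ± 0.15) and when Xist-positive libraries alone were used (-0.01 ± 0.17).

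Airn, the long noncoding RNA that starts inside Igf2r on the opposite strand and is known to silence its paternal copy in cis, rose in Het. It had 27.7, 29.7, 25.1, 30.3, 29.8 and 31.4 CPM in Het 1 to 6, against 22.0, 20.2, 19.2, 20.2 and 18.9 CPM in WT 1 to 5. Every Het library lay above every WT library (log2 fold change 0.53 ± 0.10, SE, adjusted p = 0.00458). The exons of Airn and Igf2r share no bases, but the libraries are unstranded and reads from Igf2r introns could fall on Airn exons, so the transcripts cannot be fully told apart. The log2 fold change was 0.50 with the sex score (adjusted p = 0.117) and 0.52 in the Xist-positive libraries (adjusted p = 0.235), so the call was lost in both.

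Of the binding proteins, Igfbp2 showed the largest difference in the family. Igfbp2 carries IGF2 and IGF1 and is known as an abundant fetal binding protein. It lies on chromosome 1 at 72824503 to 72852474 (ENSMUSG00000039323). It had 4.66, 14.0, 7.49, 13.5, 16.0 and 14.1 CPM in Het 1 to 6, against 0.464, 1.07, 0.770, 2.13 and 0.822 CPM in WT 1 to 5. Het 1 and Het 3 were the lowest of their group, and the lowest Het library still lay above the highest WT library. The counts behind these values were 63 to 296 in Het and 7 to 29 in WT, so WT values carry a large counting error. The log2 fold change was 3.48 ± 0.39 (SE, adjusted p = 1.21e-04). Het 1 and Het 2, which are Xist-positive, had 4.66 and 14.0 CPM, and the Y-positive Het libraries 7.49 to 16.0 CPM. Igfbp2 stayed called beside the sex score (3.13 ± 0.45, adjusted p = 0.00453) and among Xist-positive libraries (3.16 ± 0.51, adjusted p = 0.0454).

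Igfbp5 is the next gene to Igfbp2, tail to tail with 5457 bases and no annotated gene between them, and it did not pass. Igfbp5, a binding protein that attaches to matrix, had 76.5, 25.2, 61.5, 30.4, 33.4 and 62.4 CPM in Het 1 to 6, against 47.1, 28.9, 36.1, 57.8 and 52.7 CPM in WT 1 to 5. The highest and the lowest library were both Het (log2 fold change 0.12 ± 0.29, SE, adjusted p = 0.878). Igfbp6, which binds IGF2 more tightly than IGF1, had 22.6, 5.62, 11.9, 5.00, 11.2 and 14.8 CPM in Het 1 to 6, against 17.3, 8.31, 11.3, 18.2 and 14.7 CPM in WT 1 to 5. Here too Het held the highest and the lowest library (log2 fold change -0.23 ± 0.34, SE, adjusted p = 0.772). These 2 had the largest coefficients of variation of the 10 members in Het, 43.9 percent for Igfbp5 and 54.8 percent for Igfbp6, against 26.6 percent and 29.8 percent in WT.

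The spread of both genes ran in nearly the same order as several marker sums, among them that of mesothelium, the lining of the body cavities. The summed level of its 5 markers, all detected and none called, was 12.5 to 114 CPM in Het and 27.9 to 95.2 CPM in WT. From high to low it ran Het 1, 6, 3, 5, 2 and 4, the same order as Igfbp6 and, apart from Het 2 and 4, as Igfbp5. In WT it ran 4, 5, 1, 3 and 2, the same order as Igfbp5 and, apart from WT 5 and 1, as Igfbp6. The match is not particular to mesothelium. Macrophage markers ran 4, 5, 1, 3 and 2 in WT too, and Het 1, 3, 5, 6, 2 and 4. Fibroblast markers ran Het 3, 1, 6, 5, 2 and 4, and 4, 5, 3, 1 and 2 in WT. These orders were noticed after the values were seen, and the part of any of these cell types in the levels of either gene was not tested.

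**Figure D3:**
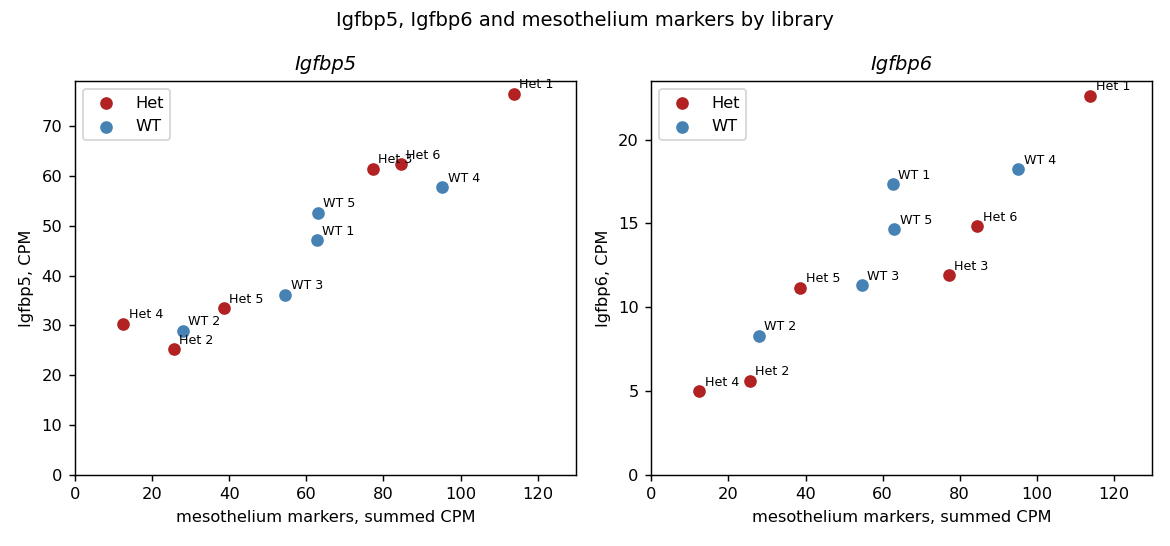
Igfbp5 and Igfbp6 CPM of each library against the summed CPM of 5 mesothelium markers, Het in red and WT in blue. Het 1 is highest on every axis at 114, 76.5 and 22.6 CPM, Het 4 is lowest for the markers and Igfbp6 at 12.5 and 5.00 CPM, and the groups intermingle.

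Igfbp4, a binding protein that mostly restrains IGF action until it is cleaved, fell in Het. It lies on chromosome 11 at 99041244 to 99054392 (ENSMUSG00000017493). It had 278, 249, 312, 236, 233 and 223 CPM in Het 1 to 6, against 364, 339, 392, 361 and 369 CPM in WT 1 to 5. The highest Het library, Het 3, lay below the lowest WT library, WT 2. Means were 255 ± 33.5 CPM in Het (SD, n = 6) and 365 ± 18.8 CPM in WT (SD, n = 5), a log2 fold change of -0.52 ± 0.09 (SE, adjusted p = 0.00339). The Xist-positive Het libraries had 278 and 249 CPM and the Y-positive ones 223 to 312 CPM. With the sex score Igfbp4 was at -0.45 ± 0.13 and missed the threshold (adjusted p = 0.163), as in the Xist-positive libraries (-0.47 ± 0.12, adjusted p = 0.177). Fibroblast markers, for cells known to express Igfbp4, summed to 1587 to 2459 CPM in Het and 1592 to 2268 CPM in WT, and 1 of 7, Pi16, was lower in Het.

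Igfbp7, a secreted protein of vessel walls with weak affinity for IGFs that also binds insulin, rose in Het. It lies on chromosome 5 at 77349240 to 77408041, minus strand (ENSMUSG00000036256). It had 364, 438, 322, 415, 395 and 577 CPM in Het 1 to 6, against 235, 246, 281, 290 and 325 CPM in WT 1 to 5. Het 6 was highest, and Het 3 alone lay below a WT library. Means were 418 ± 87.4 CPM in Het (SD, n = 6) and 275 ± 36.1 CPM in WT (SD, n = 5), a log2 fold change of 0.60 ± 0.13 (SE, adjusted p = 0.0142). Endothelial markers, of the cells in which Igfbp7 is best known, summed to 328 to 528 CPM in Het and 352 to 482 CPM in WT, and 0 of 7 passed. Pecam1, at 243 CPM in Het and 296 CPM in WT, made up most of the sum. Pecam1 and Tie1 averaged lower in Het. Cdh5, Kdr, Tek, Vwf and Emcn averaged higher, with Emcn at 10.1 CPM in Het and 4.12 CPM in WT (adjusted p = 0.107). The part of endothelial cells in the Igfbp7 result was not tested. The Igfbp7 call was lost with the sex score (0.53 ± 0.18, adjusted p = 0.266), among Xist-positive libraries (0.55 ± 0.14, adjusted p = 0.211) and without WT 1 and WT 2 (0.48 ± 0.15, adjusted p = 0.103). WT 1 and WT 2 had the fewest genes with a count, 19988 and 20154, beside 20692 to 21350 in the other libraries. They were the lowest WT libraries for Igfbp7 and the highest for Igf1, whose call stayed without them (adjusted p = 0.00274). The cause of their difference was not tested. Igfbp7 shares 85 exon bases with Polr2b on the other strand, which the unstranded libraries cannot separate.

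Igfbp3, the main IGF carrier of adult blood and a known TGF-beta target, was the least abundant member per length in Het and did not pass. It had 1.26, 0.649, 1.25, 1.54, 0.813 and 1.75 CPM in Het 1 to 6, against 3.91, 1.74, 2.31, 1.69 and 2.24 CPM in WT 1 to 5. Only Het 6 lay above the lowest WT library, WT 4, and WT 1 stood apart from its group. The counts were 9 to 26 in Het and 23 to 59 in WT (log2 fold change -0.98 ± 0.33, SE, adjusted p = 0.105). Igfbp1, the liver binding protein that lies 3539 bases from Igfbp3, had 0 counts in every library, which allows at most 0.154 to 0.231 CPM.

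Column names also carry a 6 (Het 1, 2, 4 and 5, and WT 3) or a 7 (the other libraries), whose meaning the labels leave unstated and which is unevenly split between the groups. Within number 7, Igf1 had 386 and 471 CPM in Het and 760 to 1244 CPM in WT, Igfbp2 had 7.49 and 14.1 CPM in Het and 0.464 to 2.13 CPM in WT, and Igfbp4 had 223 and 312 CPM in Het and 339 to 369 CPM in WT. Igfbp7 had 322 and 577 CPM in Het and 235 to 325 CPM in WT there. Within number 6, WT 3 alone stands beside 4 Het libraries: it lay above all 4 for Igf1 and Igfbp4 and below all 4 for Igfbp2 and Igfbp7. With the number as a covariate all 4 calls stayed, with log2 fold changes of -1.23 for Igf1, 3.49 for Igfbp2, -0.51 for Igfbp4 and 0.64 for Igfbp7 (adjusted p = 0.00126, 8.36e-04, 0.0190 and 0.0349).

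Levels of different members were compared per kilobase of exon. Igfbp7 was highest in both groups, at 346 ± 72.3 CPM per kb in Het (SD, n = 6) and 228 ± 29.9 CPM per kb in WT (SD, n = 5). In Het it was followed by Igf2r at 64.6 ± 7.24, Igfbp4 at 57.8 ± 7.58 and Igf1 at 45.1 ± 9.74 CPM per kb, neighbours whose ranges over libraries overlap. In WT the same 3 ran Igf1 at 103 ± 18.1, Igfbp4 at 82.7 ± 4.26 and Igf2r at 58.5 ± 10.5 CPM per kb. Igf1 exceeded Igf2r per length in 1 of 6 Het libraries and in 5 of 5 WT libraries. Igfbp4 exceeded Igf2r in 2 of 6 Het libraries and in 5 of 5 WT libraries. Because Igf1 and Igfbp4 were described above as lower in Het, these orders are the same values seen again.

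The lower levels were close together. Igfbp6 stood at 10.7 ± 5.84 CPM per kb in Het and 12.6 ± 3.74 in WT, and Igfbp5 at 8.03 ± 3.53 in Het and 7.42 ± 1.97 in WT. Igf1r and Igf2 did not differ beyond their spread at the exon lengths used here. They stood at 4.41 ± 0.56 and 3.78 ± 0.98 CPM per kb in Het and 3.77 ± 0.78 and 4.07 ± 0.98 in WT. Igfbp2 ranked seventh in Het, at 6.30 ± 2.43 CPM per kb, above Igf1r and Igf2 in 4 of 6 libraries each. In WT it ranked last, at 0.569 ± 0.347 CPM per kb, and was below both in every library.

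The makeup of the binding protein transcripts is a further view of the same values. Igfbp7 made up 80.2 ± 4.71 percent of their summed level per length in Het (SD, n = 6) and 68.5 ± 2.58 percent in WT (SD, n = 5). Igfbp4 made up 13.9 ± 3.48 percent in Het and 25.1 ± 2.12 percent in WT, and Igfbp2 1.46 ± 0.54 percent in Het and 0.171 ± 0.099 percent in WT. The sum of all 6 was 429 ± 68.1 CPM per kb in Het and 332 ± 34.1 CPM per kb in WT, with ranges that overlap. Igf1 stood at 0.108 ± 0.032 of that sum in Het and 0.318 ± 0.083 in WT, with the highest Het library, Het 1, at 0.157 and the lowest WT library, WT 5, at 0.204. These sums and ratios describe transcripts, and not secreted protein, and were not tested.

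**Figure D4:**
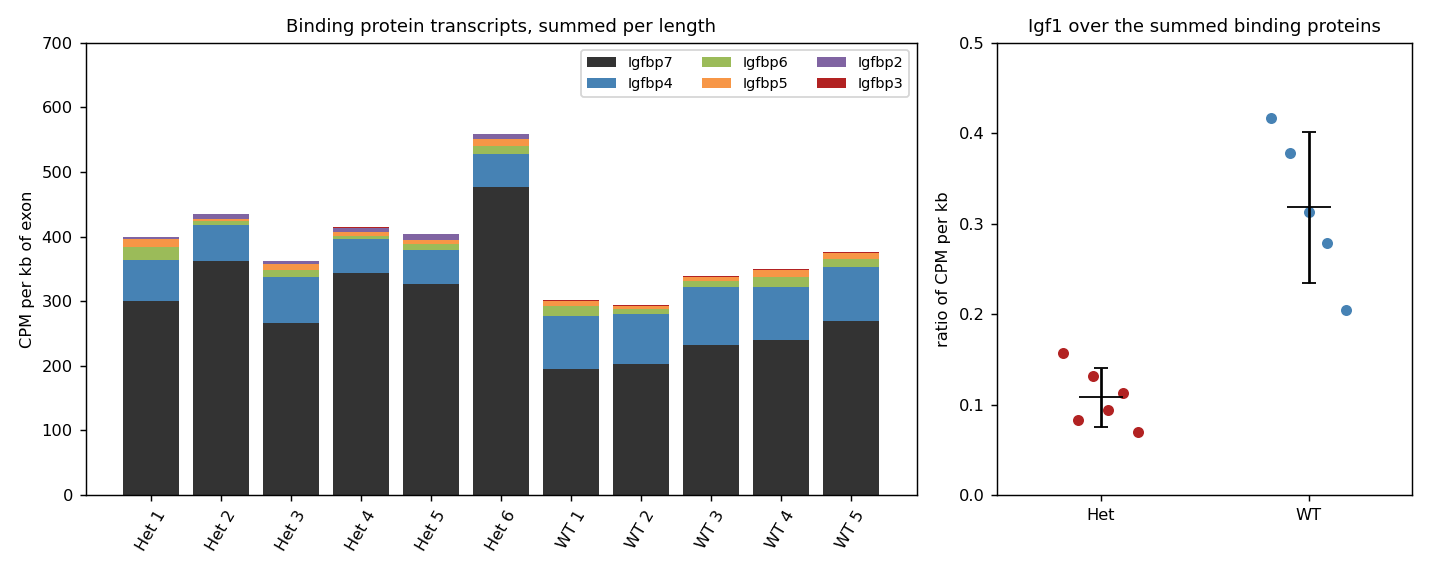
Left, CPM per kb of exon of the 6 binding proteins stacked for each library, Het before WT; right, the ratio of Igf1 to their sum in each library with mean and SD. Igfbp7 fills most of every bar, the Igfbp4 band is narrower in Het, and the Het ratios of 0.0697 to 0.157 lie below the WT ratios of 0.204 to 0.416.

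Over 6 lists of other pathway genes, 87 in all, of which 70 had enough counts to be tested, 3 rose, 3 fell and 64 did not pass, with a median log2 fold change of -0.02. The 6 called are 8.57 percent of those tested, beside 5.03 percent of all genes tested. Of the 10 proteases and regulators of binding proteins, 7 were tested and 1 rose: Plau, urokinase, which can start cascades that cleave binding proteins, at 12.2 ± 1.36 CPM in Het and 5.28 ± 0.81 CPM in WT (log2 fold change 1.20 ± 0.15, SE, adjusted p = 2.59e-04). Pappa, the protease best known for cleaving IGFBP4, is named for that role, after its values were seen, and was at 1.92 ± 0.92 CPM in Het and 1.96 ± 1.34 CPM in WT (adjusted p = 0.982). Mmp2, a gelatinase, did not pass (log2 fold change -0.20 ± 0.09, SE, adjusted p = 0.241).

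Of 11 insulin family genes and other carriers, 5 were tested and 1 fell: Htra3, a secreted serine protease with an IGFBP-like domain, at 173 ± 16.1 CPM in Het and 237 ± 17.7 CPM in WT (log2 fold change -0.46 ± 0.08, SE, adjusted p = 0.00452). Insr, the insulin receptor, had 19.3 to 25.0 CPM in Het and 14.1 to 18.6 CPM in WT, ranges that do not overlap, and just missed the threshold (log2 fold change 0.40 ± 0.12, SE, adjusted p = 0.0565). Of 16 genes of the Igf2 locus, its regulators and related imprinted genes, 12 were tested and Airn alone passed. Peg3, an imprinted zinc finger gene, had the next smallest p (adjusted p = 0.144).

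Downstream of the receptors, 1 of 19 tested signalling genes fell and none rose. Pik3cb, a catalytic subunit of phosphoinositide 3-kinase, was at 4.37 ± 1.07 CPM in Het and 7.45 ± 1.62 CPM in WT (log2 fold change -0.77 ± 0.21, SE, adjusted p = 0.0462). Pik3r3, a regulatory subunit of the same kinase, did not pass (log2 fold change -0.43 ± 0.17, SE, adjusted p = 0.173). Of 21 tested genes of the Foxo and mTOR arm, 1 rose: Txnip, a thioredoxin-binding protein that limits glucose uptake, at 80.5 ± 13.8 CPM in Het and 57.0 ± 8.85 CPM in WT (log2 fold change 0.50 ± 0.13, SE, adjusted p = 0.0341). Sesn1, a stress-induced inhibitor of mTOR signalling, was at 60.7 ± 11.7 CPM in Het and 82.6 ± 10.1 CPM in WT and missed the threshold (adjusted p = 0.0539).

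In the growth hormone axis, which drives Igf1 in liver, 1 of 6 tested genes fell. Stat5a, a transcription factor that the growth hormone receptor activates, was at 21.1 ± 3.04 CPM in Het and 30.9 ± 6.78 CPM in WT (log2 fold change -0.55 ± 0.15, SE, adjusted p = 0.0417). Ghr, the receptor itself, was at 125 ± 15.2 CPM in Het and 152 ± 21.4 CPM in WT and did not pass (log2 fold change -0.29 ± 0.11, SE, adjusted p = 0.144). Plau stayed called with the sex score (adjusted p = 0.00718), while Htra3, Pik3cb, Txnip and Stat5a did not (adjusted p = 0.186, 0.458, 0.172 and 0.378). In the Xist-positive libraries none of these 5 passed (Plau, adjusted p = 0.0588). Leaving out single libraries ended the calls of Pik3cb (10 of 11), Txnip (7 of 11) and Stat5a (7 of 11). These calls were also lost with the column-name number as a covariate (adjusted p = 0.163, 0.0900 and 0.211). Without WT 1 and WT 2 they were lost too (adjusted p = 0.141, 0.0805 and 0.264). Plau and Htra3 stayed called in both fits. Pik3cb also missed the threshold with upper quartile scaling (adjusted p = 0.0562), and Stat5a with limma voom (adjusted p = 0.0598).

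The 4 calls among the members held when any 1 library was left out. Log2 fold changes were -1.32 to -1.12 for Igf1, 3.29 to 3.89 for Igfbp2, -0.58 to -0.48 for Igfbp4 and 0.49 to 0.67 for Igfbp7. The weakest was Igfbp7, whose adjusted p reached 0.0460. The size of the Igfbp2 difference depended on how low values were handled. With 1 or 0.5 added to the CPM deposited by the authors, before the logarithm, its log2 fold change was 2.57 or 2.95. Igfbp2 stayed called in both of these limma fits (adjusted p = 6.76e-05 and 6.45e-05).

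**Figure D5:**
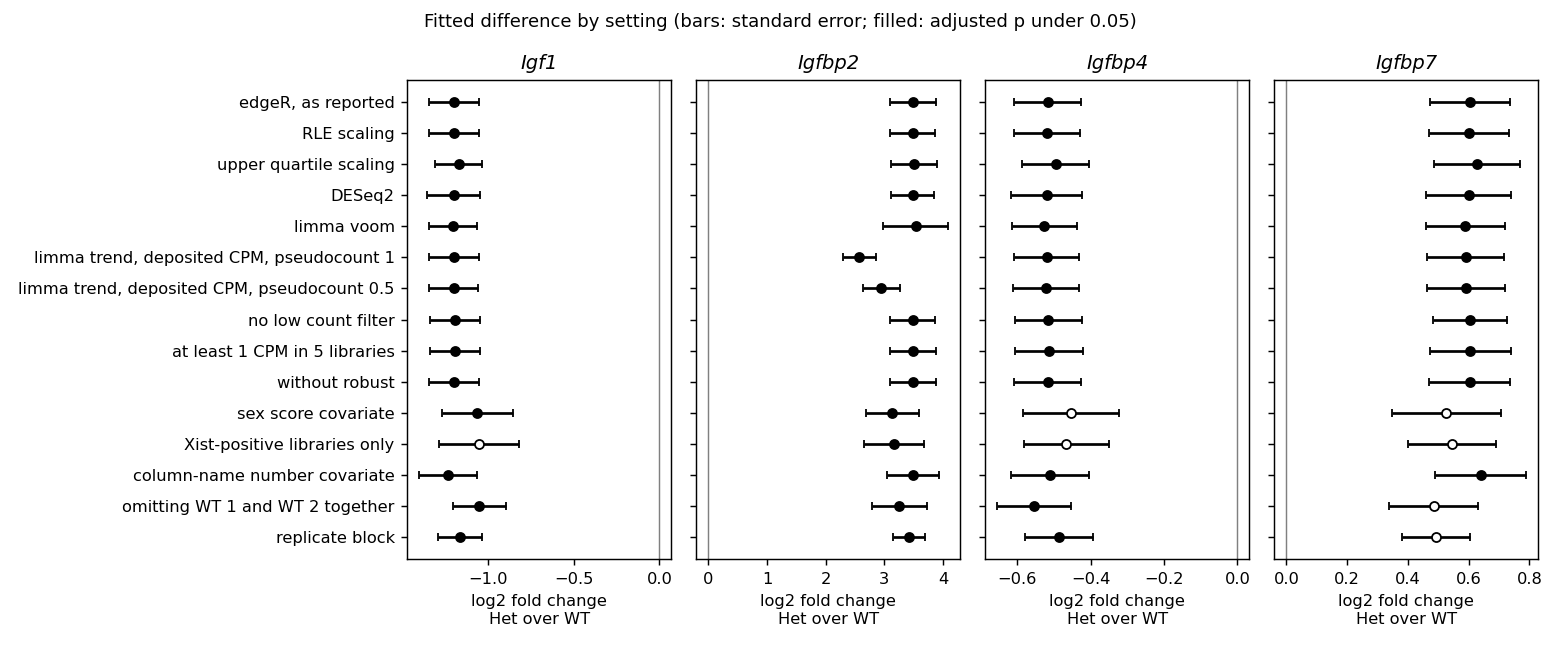
Log2 fold change of Het over WT for the 4 called members as reported and under other processing settings (single left-out libraries are not drawn), with bars of 1 standard error and filled points where the adjusted p is under 0.05. The direction is the same in every setting; Igfbp2 is filled throughout, Igf1 is open in 1 setting, Igfbp4 in 2 and Igfbp7 in 4.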

How the data were processed

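RNA of 6 Het and 5 WT aortic arches was sequenced, per the labels' protocols, from unstranded Nextera XT libraries as single 75 nt reads, pooled over 2 runs that share 1 column per sample. Per the submitters' processing notes, the tools included the aligner STAR (2.5.2a) beside edgeR, limma and DESeq2, and the build was GRCm38; which counter made the table is not given in the sources used here. Raw counts were deposited by the authors for 48733 rows, of which 24 spike-in or transgene rows (at most 8.06e-05 percent of a library) were left out. A deposited filtered table repeats 19629 rows with equal values. Another deposited signal table, named as TMM-normalized CPM, served only as an alternative. Columns were matched to titles by group and replicate number.

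Genes were kept by filterByExpr (minimum count 10, minimum total 15), scaled by TMM factors of 0.979 to 1.031 and tested by edgeR 4.0.16 (R 4.3.3) with the robust quasi-likelihood F test, Het against WT in all 11 libraries without covariates. The SE is the log2 fold change divided by the square root of F. Lengths came from GENCODE M21 (GRCm38), as the union of exons. CPM intervals are not given; 3 counts, the limit of a count of 0, cover counting error only. Alternatives used DESeq2 1.42.0, limma 3.58.1, other scalings and filters, pseudocounts of 1 and 0.5 on the deposited CPM, a sex score (mean log2 CPM of 4 Y-linked genes minus that of Xist), libraries with at least 100 Xist counts, the column-name number, a replicate block and left-out libraries. The edgeR test was checked on counts simulated from its own fit. These held no sex or column-number difference, so that check cannot bear on such effects. Members, pathway and marker lists were chosen with earlier results of these data known. All members are named; of each pathway list, the genes past the threshold or, below 2, those of smallest p.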

Additional observations from a re-analysis of the deposited data

Results flagged for a closer look

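Igfbp3 in WT 1, at 3.91 CPM, stood apart from the other WT libraries, whose nearest value was 2.31 CPM and lowest 1.69 CPM: its gap was 0.72 of the whole WT range, above the limit of 0.71 for 5 samples. It was 1 of 32 sets of values looked at in this way, and chance alone flags about 1 in 20. Without WT 1 the log2 fold change of Igfbp3 was -0.73 (adjusted p = 0.278), and it passed in none of the alternatives.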

How the results depend on the processing

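Genes called numbered 742 (391 higher and 351 lower in Het), and 2862 had an unadjusted p under 0.05. The count was 1297 with DESeq2, 432 without both WT 1 and WT 2, 415 with the column-name number, 123 beside the sex score (2 family members called) and 34 among Xist-positive libraries (1 member called). Leaving out single libraries gave 458 (without WT 2) to 853 (without WT 4). The subsets hold fewer samples, while the fits with a covariate kept all 11 libraries. The cause of these changes was not tested. Not-called members changed sign: Igf2r at -0.0271 beside the sex score and -0.0136 among Xist-positive libraries, Igfbp6 at 0.0138 and 0.0228 there, Igf2 at 0.0097 with the column-name number, and Igfbp5 at -0.018 without WT 1 and WT 2 and at -0.0632 to 0.25 over single left-out libraries. With the longest transcript as length Igf1r stood at 6.07 CPM per kb over all libraries, against 4.12, and Igf2 at 4.74, against 3.91. Igfbp2 stood at 5.22 CPM per kb over all libraries, against 3.69, and so moved from below Igf2 to above it. Comparisons of members at close levels therefore depend on the length used. The orders given within Het and within WT used the union of exons only.

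Same-numbered Het and WT libraries did not deviate together (correlations -0.214 to 0.0595, none highest with its own number). Low correlations cannot exclude that same-numbered libraries share a litter or batch. A replicate block, which drops Het 6, gave 332 genes called and Igfbp5 at -0.0556, and Igfbp7 (0.49, adjusted p = 0.0563) and Airn (0.51, adjusted p = 0.0517) missed the threshold. Low counts limit Igfbp3 and WT levels of Igfbp2.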
